A study of Homo sapiens with 12 samples.

Results

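Most of the genes described here encode or control SREBP, the transcription factors that set the supply of sterols and fatty acids. The others move cholesterol within the cell, including cholesterol that came in with LDL. All were chosen by name: INSIG1, INSIG2, SCAP, SREBF1, SREBF2, STARD4, NPC1 and LPIN1. Of these, 7 of 8 were analysed among the 16389 genes of the count table, and INSIG1 is not analysed here. They were measured by RNA-seq of poly(A) RNA in HepG2, an established human liver cancer cell line, at passage 9. The study asked how high glucose changes the genes that liver cells express and how valproic acid (VPA), an inhibitor of histone deacetylases, acts on top of it. LG cells were kept for 48 h in medium with 5.5 mM glucose and HG cells in medium with 20 mM glucose, both without VPA. LGV and HGV cells were kept in the same 2 media and then given 1 mM VPA for another 12 h. Each of the 4 groups had 3 libraries. The replicates carry numbers only, and nothing in the labels says that they were separate cultures, so the p-values measure the spread between these libraries, which may be technical.

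SREBF1 and SREBF2 encode SREBP precursors that are held in the membrane of the endoplasmic reticulum. SCAP escorts them to the Golgi, where proteases release the part that enters the nucleus, and the INSIG proteins hold SCAP back when sterols are abundant. SREBP-2 chiefly drives the genes of cholesterol synthesis, and SREBP-1 those of fatty acid synthesis. NPC1 lets cholesterol from LDL leave the lysosome, STARD4 carries sterol through the cytosol, and LPIN1 makes diacylglycerol and also acts on SREBP in the nucleus. All of these steps act on protein, and the data here are transcript counts only.

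The bases upstream of the start are shown for 4 genes, because SREBP proteins are known to act through short elements there together with helper factors. The windows hold the 250 bases before the RefSeq start site on GRCh38.p14, written 5′ to 3′ on the strand of the gene, and capitals mark every match on either strand to any of 4 motifs. The sterol regulatory element was searched as TCACNCCAC, which SREBP proteins are known to bind. The E-box was searched as CACGTG, a site bound by helix-loop-helix factors. The site of the factor NF-Y, a helper of SREBP, was searched as CCAAT and is called by these letters below. The GC box, a site of Sp1, was searched as GGGCGG on either strand. SREBF2 and SREBF1 are shown as the paralogs whose ratio differed between groups. STARD4 is shown as a sterol carrier that was higher with VPA, and SCAP as the escort of both SREBP proteins.
SREBF2 (chr22:41832855-41833104, plus strand): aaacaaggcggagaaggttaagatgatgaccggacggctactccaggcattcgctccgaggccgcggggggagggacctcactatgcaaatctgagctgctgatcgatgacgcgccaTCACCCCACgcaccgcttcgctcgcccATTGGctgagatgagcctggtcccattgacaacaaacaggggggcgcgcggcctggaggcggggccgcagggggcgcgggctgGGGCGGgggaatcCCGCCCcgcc
SREBF1 (chr17:17836987-17837236, minus strand): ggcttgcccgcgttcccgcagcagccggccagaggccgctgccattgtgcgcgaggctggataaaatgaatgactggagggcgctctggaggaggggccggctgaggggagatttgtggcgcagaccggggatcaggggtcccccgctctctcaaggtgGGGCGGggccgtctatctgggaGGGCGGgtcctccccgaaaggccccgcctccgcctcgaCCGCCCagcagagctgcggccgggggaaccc
STARD4 (chr5:111512536-111512785, minus strand): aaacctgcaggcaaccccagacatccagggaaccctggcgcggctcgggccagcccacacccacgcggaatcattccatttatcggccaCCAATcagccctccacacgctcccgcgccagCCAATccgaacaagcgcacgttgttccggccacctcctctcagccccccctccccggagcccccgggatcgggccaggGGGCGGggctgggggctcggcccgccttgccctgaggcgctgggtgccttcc
SCAP (chr3:47475942-47476191, minus strand): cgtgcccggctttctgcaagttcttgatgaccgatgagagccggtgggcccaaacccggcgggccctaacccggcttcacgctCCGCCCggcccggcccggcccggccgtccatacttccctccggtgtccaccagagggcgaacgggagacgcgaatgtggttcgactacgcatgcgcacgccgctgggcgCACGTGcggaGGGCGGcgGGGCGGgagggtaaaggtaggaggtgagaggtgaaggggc

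All 7 genes matched the promoter table, with 10 windows between them, since INSIG2 has 2 listed starts and LPIN1 has 3. SREBF1 has 1 listed start, and the bases before any other first exon of it were not searched. The sterol element letters occurred in SREBF2 alone, starting 133 bases before the start, against 0.88% of 35116 windows of the same length in the whole table. A CCAAT box, found in 32.01% of all windows, lay 106 bases before the SREBF2 start on the other strand and 161 and 130 bases before the STARD4 start. The E-box letters, in 6.34% of all windows, occurred in SCAP 58 bases before the start. GC box letters, in 42.64% of all windows, occurred in at least 1 window of each of the 7 genes. These are matches of letters and not measured binding, and a window without a match says nothing about a factor.

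The total counts per library ran from 29798442 to 45572694, and the lowest count of any of the 7 genes in any library was 410, in STARD4. Values are given as CPM (counts scaled to library size), adjusted with TMM factors. TXNIP, a gene known to be induced by glucose, had a log2 fold change of 5.37 in HG against LG (FDR 6.81e-09), which matched the labels. H1F0, often used as a sign of histone deacetylase inhibition, did not pass the test with VPA in either medium (0.23, FDR 0.114 in HG and -0.11, FDR 0.536 in LG). Each check also passed with the other factor. H1F0 was called higher with glucose, both with and without VPA, and TXNIP was called higher with VPA in the low glucose medium. By protein blot, the study itself reported more histone acetylation after VPA in HepG2 cells in the low glucose medium. All 8 of 8 HepG2 markers were present, with a summed level of 51482 to 58027 CPM in LG, 52213 to 59492 in HG, 39671 to 40624 in LGV and 46319 to 60846 in HGV. The LGV libraries were thus below the others in this sum, and 5 of 8 markers were lower in LGV than in LG, among them HNF4A, a master regulator of hepatocyte genes. Of 8 listed markers of other cell types, 3 were analysed (ACTA2, VWF and COL1A1), with a summed level of 19.8 to 23.1 CPM in LG, 39.1 to 42.3 in HG, 14.0 to 14.3 in LGV and 23.5 to 30.9 in HGV. Most of this was ACTA2, of smooth muscle and stellate cells, which was higher with glucose (log2 fold change 1.02, FDR 5.42e-05) and lower with VPA (-0.76, FDR 0.000389 in HG). COL1A1, of fibroblasts, stood at 0.339 CPM in HG and 1.97 CPM in HGV (FDR 8.96e-05). It stood at 0.226 CPM in LG and 1.09 CPM in LGV (FDR 0.000553). COL1A1 passed the filter on low counts only where libraries with VPA, in which it was high, were compared. Its entry to these tests may thus have depended on its level with VPA, and no conclusion is drawn from its FDR values. VWF, of endothelium, averaged at most 2.98 CPM in a group and passed the test in neither medium with VPA. The part of these shifts in the results below was not tested, and with bulk RNA fewer cells of a type and less RNA per cell cannot be told apart.

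Per kilobase of exon, which allows a rough comparison of levels between genes, the 7 genes fell into an upper and a lower tier. The length is that of all annotated exons of a gene merged, so the order of close genes depends on the annotation. SREBF2 averaged 33.3 CPM per kb over the 12 libraries, INSIG2 32.3, SCAP 26.0 and NPC1 19.8. SREBF1 followed with 5.99, LPIN1 with 4.25 and STARD4 with 3.95 CPM per kb. Each of the upper 4 was above each of the lower 3 in all 12 libraries. Neighbours within a tier changed places between libraries: SREBF2 was above INSIG2 in 6 of 12 libraries, INSIG2 above SCAP in 8 and SREBF1 above LPIN1 in 8. SCAP was above NPC1 in all 12. Before scaling to length, STARD4 was higher than 59.1% of the genes of the table by mean CPM and SREBF2 higher than 96.8%.

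With glucose, SREBF2 was the gene of this group that rose, while INSIG2, SCAP, NPC1 and LPIN1 fell. In HG against LG, 1 of 7 was higher and 4 of 7 were lower at an FDR of 0.05 or less, against a background of 12% of the 15452 genes tested higher and 12.7% lower. In HGV against LGV the same 5 genes passed in the same directions, 1 higher and 4 lower, with a background of 21.2% higher and 19.5% lower. The 2 comparisons of glucose share no library. With VPA, SREBF1 fell and STARD4 and LPIN1 rose in both media. In HGV against HG, 2 of 7 were higher and 2 lower (background 25.8% and 20.2% of 16188 genes). The counts in LGV against LG were also 2 higher and 2 lower (background 21.7% and 19.9% of 15944). For 7 genes, these VPA counts lie near the background. The second gene that was lower differed, INSIG2 in the high and SREBF2 in the low glucose medium. The median log2 fold change of the 7 genes was -0.43 in HG against LG and -0.34 in HGV against LGV, where the median over all genes tested was 0.01 in each. With VPA it was -0.09 in the high and -0.21 in the low glucose medium, where the median over all genes was 0.02 and -0.01.

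**Figure D1:**
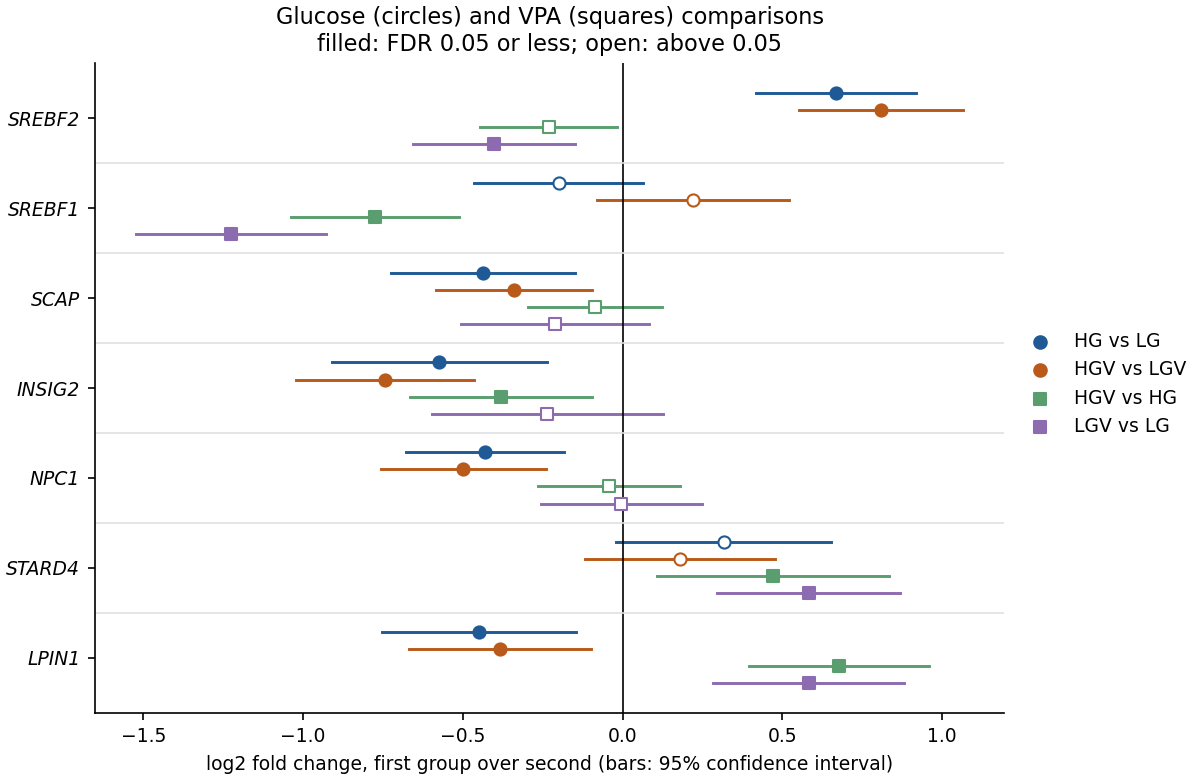
Log2 fold change of each of the 7 genes (x axis, first group over second) in the 2 glucose comparisons (circles) and the 2 VPA comparisons (squares), with bars for the 95% confidence interval and filled symbols for an FDR of 0.05 or less. SREBF2 lies to the right of 0 for glucose and SREBF1 far to the left for VPA, and LPIN1 lies left of 0 for glucose and right of 0 for VPA.

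The balance of calls over all genes depended on the scaling, which bears on genes with small changes. With TMM factors 48.6% of the calls of HG against LG were higher in HG, and with library size alone 62.6%. For HGV against HG the share was 56.1% and 68.1%, and for LGV against LG 52.1% and 69.7%. For HGV against LGV it was 52.2%, and 63.5% with upper quartile factors. Library size alone moved the median of all genes by 0.12 in HGV against HG and by 0.16 in LGV against LG on the log2 scale, and no called direction of the 7 genes turned under any scaling.

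SREBF2 lies on chromosome 22 from 42229109 to 42303310 (GRCh37, plus strand, ENSG00000198911). Its level was 252, 226 and 215 CPM in LG replicates 1, 2 and 3 and 338, 379 and 366 CPM in HG. In the cells given VPA it was 157, 178 and 185 CPM in LGV and 323, 303 and 297 CPM in HGV. Every library with 20 mM glucose was above every library with 5.5 mM glucose, with or without VPA. The group means were 231 ± 19.2 CPM in LG (SD, n = 3), 361 ± 20.9 in HG, 173 ± 14.7 in LGV and 307 ± 13.9 in HGV. The log2 fold change was 0.67 in HG against LG (SE 0.12, FDR 0.000638) and 0.81 in HGV against LGV (SE 0.12, FDR 7.03e-05). Both calls passed under each of the 15 alternatives in normalization, filter, test and libraries. A larger change in either direction was seen in 17.7% of all genes tested for HG against LG. With VPA the level fell by 0.40 on the log2 scale in the low glucose medium (SE 0.12, FDR 0.0140). That call missed the threshold without LG replicate 1 (-0.34, FDR 0.0618), without LGV replicate 1 (-0.33, FDR 0.0592) and with library size alone (-0.24, FDR 0.0585). In the high glucose medium the change with VPA was -0.23 (SE 0.10, 95% confidence interval -0.45 to -0.02), which did not pass (FDR 0.0736), although the groups did not overlap. It passed with the Wald test of DESeq2 (FDR 0.0410) and without HG replicate 1 (FDR 0.0455).

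SREBF1 lies on chromosome 17 from 17713713 to 17740316 (minus strand, ENSG00000072310). It stood at 77.6, 67.6 and 67.7 CPM in LG and at 55.3, 65.3 and 61.5 CPM in HG. After VPA it stood at 24.9, 29.5 and 35.9 CPM in LGV and at 35.4, 31.1 and 39.9 CPM in HGV. All 6 libraries with VPA were below all 6 without it, and the LGV and HGV libraries overlapped. The mean fell from 71.0 ± 5.71 CPM in LG to 30.1 ± 5.53 in LGV (SD, n = 3), a log2 fold change of -1.23 (SE 0.14, FDR 7.3e-06). From HG to HGV it fell from 60.7 ± 5.08 to 35.5 ± 4.43 CPM, a log2 fold change of -0.78 (SE 0.12, FDR 0.000205). Both calls held under all 15 alternatives. With glucose SREBF1 did not pass the test, with -0.20 in HG against LG (95% confidence interval -0.46 to 0.06, FDR 0.259) and 0.22 in HGV against LGV (-0.08 to 0.52, FDR 0.232). All HG libraries nevertheless lay below all LG libraries. SREBF1 transcripts encode SREBP-1a and SREBP-1c from different first exons, which a count per gene cannot tell apart.

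Antisense and overlapping genes share exon bases with both SREBF genes, and the sources used here do not state whether reads were counted by strand. RAI1, on the other strand, shares 556 exon bases with SREBF1 (6.8% of its exon length) and averaged 62.5 CPM in LG, 56.8 in HG, 45.3 in LGV and 35.1 in HGV. Over the 12 libraries RAI1 stood at 101% of the mean CPM of SREBF1 and was also lower with VPA. SREBF2-AS1, listed as RP5-821D11.7, shares 731 bases with SREBF2 (9.1%) at 2.36% of its mean CPM. Without strand, reads from the shared bases of either pair cannot be told apart, and how they were counted was not tested.

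The introns of these genes also hold the 2 miR-33 genes, MIR33A in SREBF2 and MIR33B in SREBF1, known to repress cholesterol exporters. Their mature sequences are shown because they sit inside the pair of genes whose ratio differed between groups. The RefSeq sequences (GRCh38.p14) have the seed, bases 2 to 8, in capitals, and the 2 seeds are the same.
hsa-miR-33a-5p (chr22:41900949-41900969, plus strand): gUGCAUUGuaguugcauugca
hsa-miR-33b-5p (chr17:17813897-17813916, minus strand): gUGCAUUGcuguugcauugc
Poly(A) libraries do not measure mature miRNAs, so only the host transcripts are described.

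The ratio of SREBF2 to SREBF1 within a library, per exon length, does not depend on the scaling between libraries. Its absolute size depends on the annotated exon lengths, and its fold differences between groups do not. It was 3.33, 3.41 and 3.25 in LG and 6.25, 5.92 and 6.09 in HG. It was 6.46, 6.16 and 5.28 in LGV and 9.34, 9.95 and 7.59 in HGV. The LG libraries were the lowest and the HGV libraries the highest of the 12, and HG and LGV lay between them and overlapped. The means were 3.33 ± 0.0817 in LG (SD, n = 3), 6.09 ± 0.162 in HG, 5.97 ± 0.610 in LGV and 8.96 ± 1.22 in HGV. The ratio was 1.83-fold higher in HG than in LG and 1.5-fold higher in HGV than in LGV. It was 1.79-fold higher in LGV than in LG and 1.46-fold higher in HGV than in HG. In none of the 4 comparisons did the groups overlap, and each gave p = 0.1 in a two-sided exact permutation test, the smallest p that 3 libraries against 3 allow. A further test, chosen after seeing the data, permuted the labels of 1 factor within the levels of the other over the 12 libraries. The ratio was 1.65-fold higher with glucose and 1.62-fold higher with VPA (exact permutation p = 0.005 for each, and 0.005 after adjustment for 2 tests). That is the smallest p of its 400 arrangements. As the groups had not overlapped in any of the 4 comparisons, no other p was possible, and this test adds no support. Of the 2 genes of the ratio, SREBF2 passed the edgeR test in both glucose comparisons. SREBF1 passed in neither of these and in both VPA comparisons. SREBF2 was also called lower with VPA in the low glucose medium (-0.40, FDR 0.0140). In the high glucose medium its change with VPA was -0.23 and did not pass (FDR 0.0736). Both genes were thus lower on average with VPA, SREBF1 more so. Whether reads from the shared exon bases given above were counted in the ratio was not tested.

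**Figure D2:**
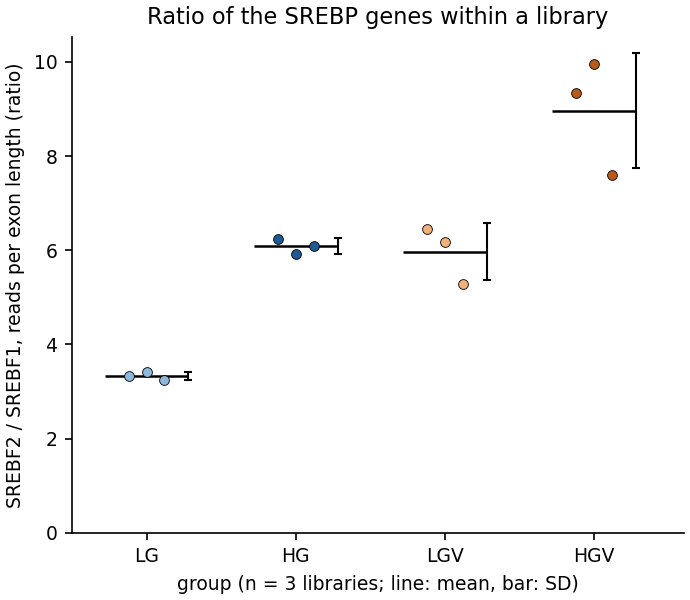
Ratio of SREBF2 to SREBF1 (y axis, reads per exon length, from 0) in each of the 12 libraries by group (x axis), with a line for the mean and a bar for the SD of 3 libraries. The LG libraries lie from 3.25 to 3.41, below all others, and the HGV libraries from 7.59 to 9.95, above all others.

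SCAP and INSIG2, the escort of SREBP and a protein that retains it, were both lower in the high glucose medium. SCAP lies on chromosome 3 from 47455171 to 47518616 (minus strand, ENSG00000114650) and INSIG2 on chromosome 2 from 118846028 to 118868573 (plus strand, ENSG00000125629). SCAP was at 236, 205 and 161 CPM in LG, 137, 156 and 143 in HG, 160, 177 and 179 in LGV and 134, 139 and 139 in HGV. All 6 libraries with 5.5 mM glucose were above all 6 with 20 mM glucose, and LG spread most, with an SD of 38.0 CPM. The log2 fold change was -0.44 in HG against LG (SE 0.14, FDR 0.0261) and -0.34 in HGV against LGV (SE 0.12, FDR 0.0255). The first call missed the threshold without HG replicate 1 (-0.38, FDR 0.108), HG replicate 3 (-0.39, FDR 0.123), LG replicate 1 (-0.29, FDR 0.186) or LG replicate 2 (-0.40, FDR 0.0702), and with upper quartile factors (FDR 0.0636) or library size alone (FDR 0.0649). The second missed it without HGV replicate 1 (-0.32, FDR 0.0817), HGV replicate 3 (-0.35, FDR 0.0644), LGV replicate 2 (-0.32, FDR 0.0898) or LGV replicate 3 (-0.31, FDR 0.127), and with upper quartile factors (FDR 0.0745). With VPA SCAP did not pass, with -0.09 in the high (95% confidence interval -0.30 to 0.12, FDR 0.494) and -0.21 in the low glucose medium (-0.51 to 0.08, FDR 0.241). Only without LG replicate 3 did the latter pass (-0.33, FDR 0.0459).

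INSIG2 was at 132, 223 and 151 CPM in LG and at 128, 98.0 and 111 CPM in HG. It was at 128, 159 and 140 CPM in LGV and at 79.8, 77.8 and 101 CPM in HGV. LG replicate 2 was far above the other LG libraries, the groups of each glucose comparison did not overlap, and LG replicate 1 lay close to HG replicate 1. The log2 fold change in HGV against LGV was -0.74 (SE 0.13, FDR 0.000284), a call that held under all 15 alternatives. In HG against LG it was -0.57 (SE 0.16, FDR 0.0147). Without LG replicate 2 that change was -0.29 (FDR 0.142), and without HG replicate 3 it was -0.53 (FDR 0.0787). With VPA in the high glucose medium INSIG2 was lower by a log2 fold change of -0.38 (SE 0.13, FDR 0.0313), although the groups overlapped. It missed the threshold with upper quartile factors (FDR 0.0521), library size alone (-0.26, FDR 0.14) or a fit of all 12 libraries (FDR 0.0666). It also missed it without HG replicate 1 (-0.30, FDR 0.0928), HG replicate 3 (-0.39, FDR 0.0671), HGV replicate 1 (-0.33, FDR 0.113) or HGV replicate 2 (-0.31, FDR 0.0665). In the low glucose medium the change with VPA was -0.24 (95% confidence interval -0.60 to 0.13, FDR 0.290).

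NPC1 lies on chromosome 18 from 21086148 to 21166470 (minus strand, ENSG00000141458). It was at 240, 231 and 204 CPM in LG, 158, 171 and 164 in HG, 205, 228 and 234 in LGV and 177, 152 and 150 in HGV. Libraries with 5.5 mM glucose and libraries with 20 mM glucose did not overlap, and those with and without VPA in the same medium did. The log2 fold change was -0.43 in HG against LG (SE 0.12, FDR 0.0131) and -0.50 in HGV against LGV (SE 0.12, FDR 0.00372). The second call held under all 15 alternatives. The first missed the threshold without HG replicate 1 (-0.39, FDR 0.0513), HG replicate 3 (-0.40, FDR 0.0846) or LG replicate 1 (-0.36, FDR 0.0714). With VPA the change was -0.04 in the high (95% confidence interval -0.27 to 0.18, FDR 0.760) and -0.00 in the low glucose medium (-0.26 to 0.25, FDR 0.981). NPC1 shares 619 exon bases (6.4%) with RMC1 on the other strand, listed as C18orf8, which stood at 10.7% of its mean CPM.

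STARD4 lies on chromosome 5 from 110831731 to 110848288 (minus strand, ENSG00000164211). It was at 15.3, 17.2 and 17.1 CPM in LG and at 24.2, 16.3 and 20.6 CPM in HG. After VPA it was at 26.2, 23.0 and 24.6 CPM in LGV and at 28.8, 22.8 and 33.2 CPM in HGV. The LGV libraries lay above all LG libraries, while HGV replicate 2 lay below HG replicate 1. The log2 fold change with VPA was 0.58 in the low glucose medium (SE 0.13, FDR 0.00279), a call that held under all 15 alternatives. In the high glucose medium it was 0.47 (SE 0.17, FDR 0.0360). That call missed the threshold without HG replicate 2 (0.33, FDR 0.144), HG replicate 3 (0.48, FDR 0.0747), HGV replicate 1 (0.46, FDR 0.0901) or HGV replicate 3 (0.34, FDR 0.155). With glucose STARD4 did not pass, with 0.32 in HG against LG (95% confidence interval -0.02 to 0.65, FDR 0.156) and 0.18 in HGV against LGV (-0.12 to 0.48, FDR 0.325). Without HGV replicate 2 the latter passed (0.32, FDR 0.0472). STARD4-AS1 shares 124 exon bases (2.2%) with it at 4.0% of its mean CPM.

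LPIN1 lies on chromosome 2 from 11817721 to 11967535 (plus strand, ENSG00000134324). It was at 44.1, 55.6 and 38.9 CPM in LG, 34.7, 32.1 and 33.3 in HG, 61.9, 68.0 and 76.2 in LGV and 61.5, 43.8 and 54.8 in HGV. The HG libraries were the lowest 3 of the 12, the LGV libraries were the highest 3, and LG and HGV lay between them. The log2 fold change with VPA was 0.68 in the high (SE 0.13, FDR 0.00097) and 0.58 in the low glucose medium (SE 0.14, FDR 0.00381), and both calls held under all 15 alternatives. With glucose it was -0.45 in HG against LG (SE 0.15, FDR 0.0300) and -0.38 in HGV against LGV (SE 0.14, FDR 0.0311). The first call missed the threshold under 8 alternatives, among them the 5 that left out HG replicate 1 (-0.46, FDR 0.0666), HG replicate 2 (-0.44, FDR 0.0838), HG replicate 3 (-0.41, FDR 0.136), LG replicate 1 (-0.46, FDR 0.0821) or LG replicate 2 (-0.27, FDR 0.176). The others were upper quartile factors (FDR 0.0758), library size alone (FDR 0.0816) and replicate number as a block (FDR 0.0604). The second call missed it without HGV replicate 2 (-0.26, FDR 0.0958), HGV replicate 3 (-0.40, FDR 0.0530), LGV replicate 2 (-0.39, FDR 0.0638) or LGV replicate 3 (-0.31, FDR 0.166), with upper quartile factors (FDR 0.0837) and with library size alone (FDR 0.116). LPIN1 was thus the gene of the 7 that was called in all 4 comparisons, lower with glucose and higher with VPA.

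**Figure D3:**
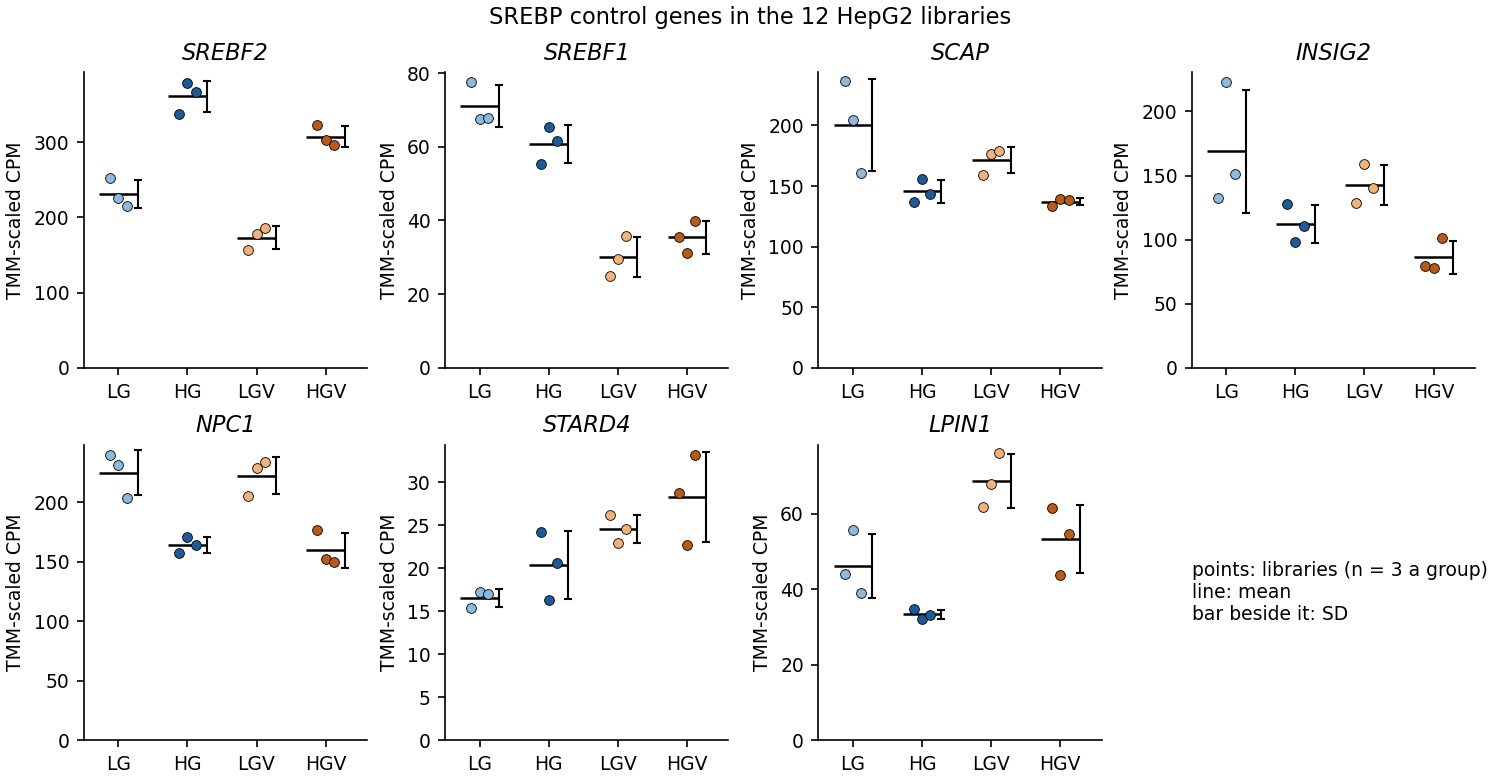
TMM-scaled CPM (y axis, from 0) of each of the 7 genes in each library by group (x axis), with a line for the mean and a bar for the SD of 3 libraries. Levels of SREBF2 are 296.6 CPM or more in the 20 mM glucose groups and 252 CPM or less in the 5.5 mM groups, and those of SREBF1 are 39.9 CPM or less with VPA and 55.3 CPM or more without.

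None of the 7 genes passed the test of whether the VPA change differed between the media (quasi-likelihood test of edgeR over the 12 libraries, 0 of 7, with 1 of 7 at an unadjusted p under 0.05). The background was 0.0427% of 16389 genes, 7 in all, with 1852 at an unadjusted p under 0.05, while the likelihood ratio test called 202 genes and DESeq2 162, none of them among the 7. The gene at an unadjusted p under 0.05 was SREBF1, whose change with VPA was 0.46 less negative in the high glucose medium on the log2 scale (SE 0.19, 95% confidence interval 0.06 to 0.86, FDR 0.365). For the other genes the interval of the difference reached from -0.62 to 0.35 in INSIG2, from -0.23 to 0.51 in SCAP, from -0.14 to 0.51 in SREBF2, from -0.55 to 0.36 in STARD4, from -0.35 to 0.30 in NPC1 and from -0.32 to 0.53 in LPIN1.

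The genes that SREBP is known to act on were counted in fixed lists, which hold none of the 7. The share of each list that passed is read against the background shares of all genes given above. In HG against LG 14 of 22 enzymes of cholesterol synthesis rose (63.6%, where 12% of all genes rose) and 0 fell, and all 22 lay above zero (median log2 fold change 0.59). MSMO1, which takes part in removing methyl groups from sterols, rose from 35.1 ± 6.99 CPM in LG to 116 ± 13.1 in HG (log2 fold change 1.74, SE 0.15, FDR 2.15e-07), and HMGCS1, an early enzyme of the pathway, from 66.0 ± 4.17 to 158 ± 34.1 CPM (1.28, SE 0.14, FDR 4.99e-06). Among 14 genes of fatty acid synthesis 10 rose (71.4%) and 0 fell (median 0.46), led by PNPLA3 (1.42, SE 0.23, FDR 0.000271) and ACSS2, which makes acetyl-CoA from acetate (1.06, SE 0.13, FDR 1.31e-05). In HGV against LGV 14 of 22 (63.6%) and 7 of 14 (50%) were higher, beside a background of 21.2%, and 0 lower in both lists. Of the cholesterol genes 4 were, in HGV against HG, higher (18.2%) and 3 lower (13.6%), for 22 genes near the background of 25.8% and 20.2%. Among them LBR (0.56, FDR 0.000316) and SC5D (0.59, FDR 0.0170) were higher and ACAT2 (-0.83, FDR 2.98e-05) and EBP (-0.60, FDR 0.00305) lower. Of the fatty acid genes 3 rose (21.4%) and 7 fell (50%) there, with ELOVL5 (0.87, FDR 1.65e-05) and ACLY (0.60, FDR 0.000684) higher and PNPLA3 (-1.28, FDR 1.00e-05) and GPAM (-1.23, FDR 1.38e-05) lower. In LGV against LG 7 of 22 were higher (31.8%) and 4 lower (18.2%), beside a background of 21.7% and 19.9%. Of the 14 fatty acid genes 5 were higher (35.7%) and 6 lower (42.9%) there. The medians in HGV against HG were -0.03 for the cholesterol and -0.25 for the fatty acid genes, beside 0.02 for all genes tested.

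Of 13 genes for the proteases and turnover of SREBP and its partners, 0 were higher and 2 lower in HG against LG, and 15.4% lower is near the background of 12.7%. These were MBTPS1, the first protease to cut SREBP (-0.39, SE 0.12, FDR 0.0236), and HSP90B1, a chaperone of the endoplasmic reticulum (-1.56, SE 0.14, FDR 4.68e-07). With VPA in the high glucose medium 2 were higher, PAQR3 (0.94, FDR 0.00126) and UFD1L (0.40, FDR 0.0116), and 1 was lower. For 13 genes, these shares of 15.4% and 7.69% lie near the background of 25.8% and 20.2%. The counts were 2 higher and 3 lower in LGV against LG (15.4% and 23.1%, background 21.7% and 19.9%). They were 4 higher and 3 lower in HGV against LGV (30.8% and 23.1%, background 21.2% and 19.5%). The median was -0.14 in HG against LG and -0.05 in HGV against HG.

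Around NPC1, 13 genes for the uptake of lipoproteins and the export of lysosomal cholesterol were listed. In HG against LG 1 was higher (7.69%) and 2 were lower (15.4%), close to the background of 12% and 12.7%. The lower genes were NPC2, the partner of NPC1 in the lysosome (-0.43, SE 0.12, FDR 0.0149), and MYLIP, a ubiquitin ligase (-0.78, SE 0.20, FDR 0.00764). With VPA in the high glucose medium 6 rose (46.2%, where 25.8% of all genes rose) and 1 fell (7.69%, background 20.2%). LIPA, the lysosomal lipase, rose from 87.7 ± 7.47 to 195 ± 28.9 CPM (1.15, SE 0.12, FDR 9.61e-06), and MYLIP rose (0.97, SE 0.15, FDR 0.000193). In LGV against LG 2 were higher and 2 lower (15.4% each, for 13 genes near the background of 21.7% and 19.9%). In HGV against LGV 3 were higher (23.1%) and 0 lower (background 21.2% and 19.5%). The median of the 13 was -0.14 in HG against LG and 0.27 in HGV against HG.

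Around STARD4, 0 of 8 tested genes for sterol carriers and esterification were higher in HG against LG. The lower genes were 4 (50%, beside a background of 12% higher and 12.7% lower). They were led by OSBPL2 (-0.66, SE 0.13, FDR 0.00130) and SOAT2, which esterifies cholesterol (-0.64, SE 0.15, FDR 0.00535). Of these 8, which were tested in all 4 comparisons, 2 rose (background 25.8%) and 1 fell (background 20.2%) in HGV against HG. SOAT2 was the gene that fell (-0.61, SE 0.14, FDR 0.00253). The counts of the 8 were 1 higher and 1 lower in LGV against LG (background 21.7% and 19.9%). In HGV against LGV 0 were higher and 3 lower (background 21.2% and 19.5%). The median of the 8 was -0.43 in HG against LG and 0.23 in HGV against HG. GRAMD1C and CAV1 are left out of these counts, since they passed the filter on low counts only where libraries with VPA, in which they were high, were compared. GRAMD1C stood at 0.220 ± 0.0979 CPM in HG and at 1.79 ± 0.349 in HGV, and CAV1 at 0.0392 CPM in HG, close to absence, and at 1.22 CPM in HGV. LXR, the receptor for oxysterols, is known to act on SREBF1. Of 9 tested genes of LXR and its targets, 1 was higher and 1 lower in HG against LG (11.1% each, near the background of 12% and 12.7%). The higher gene was ABCG5 (0.65, FDR 0.0168), and the lower was MYLIP, which is also in this list. Of the same 9 genes 2 rose and 7 fell in HGV against HG, beside a background of 25.8% and 20.2%. ABCG8, a sterol exporter, fell (-1.27, SE 0.13, FDR 6.87e-06), as did ABCA1 (-0.95, SE 0.19, FDR 0.00149). In LGV against LG 1 of the 9 was higher and 6 lower (background 21.7% and 19.9%). In HGV against LGV 2 were higher and 0 lower (background 21.2% and 19.5%). The median of the 9 was 0.0046 in HG against LG and -0.67 in HGV against HG. ABCG1 is left out for the same reason as CAV1 and stood at 0.0691 CPM in HG, close to absence, and at 1.24 CPM in HGV.

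Beside LPIN1, the list of lipins, their phosphatase and related genes had 8 tested genes. In HG against LG 1 was higher and 3 were lower (12.5% and 37.5%, beside a background of 12% and 12.7%). The higher gene was LPIN3 (0.64, SE 0.14, FDR 0.00344), and the lower ones included LPIN2 (-0.58, SE 0.12, FDR 0.00237) and PPARA (-0.66, SE 0.13, FDR 0.00118). The lipins thus did not move as one with glucose. With VPA 3 rose and 2 fell in the high glucose medium (37.5% and 25%, for 8 genes near the background of 25.8% and 20.2%). CTDNEP1, the phosphatase that acts on lipins, fell (-0.75, SE 0.11, FDR 8.62e-05), and CNEP1R1, its regulatory subunit, rose (0.49, SE 0.12, FDR 0.00469), while PPAP2A rose (0.41, FDR 0.0381) and PPAP2B fell (-0.70, FDR 6.2e-05). In LGV against LG 1 was higher and 1 lower (12.5% each, for 8 genes near the background of 21.7% and 19.9%). In HGV against LGV 1 was higher and 5 were lower (12.5% and 62.5%, beside a background of 21.2% and 19.5%). The median was -0.33 in HG against LG and -0.13 in HGV against HG.

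**Figure D4:**
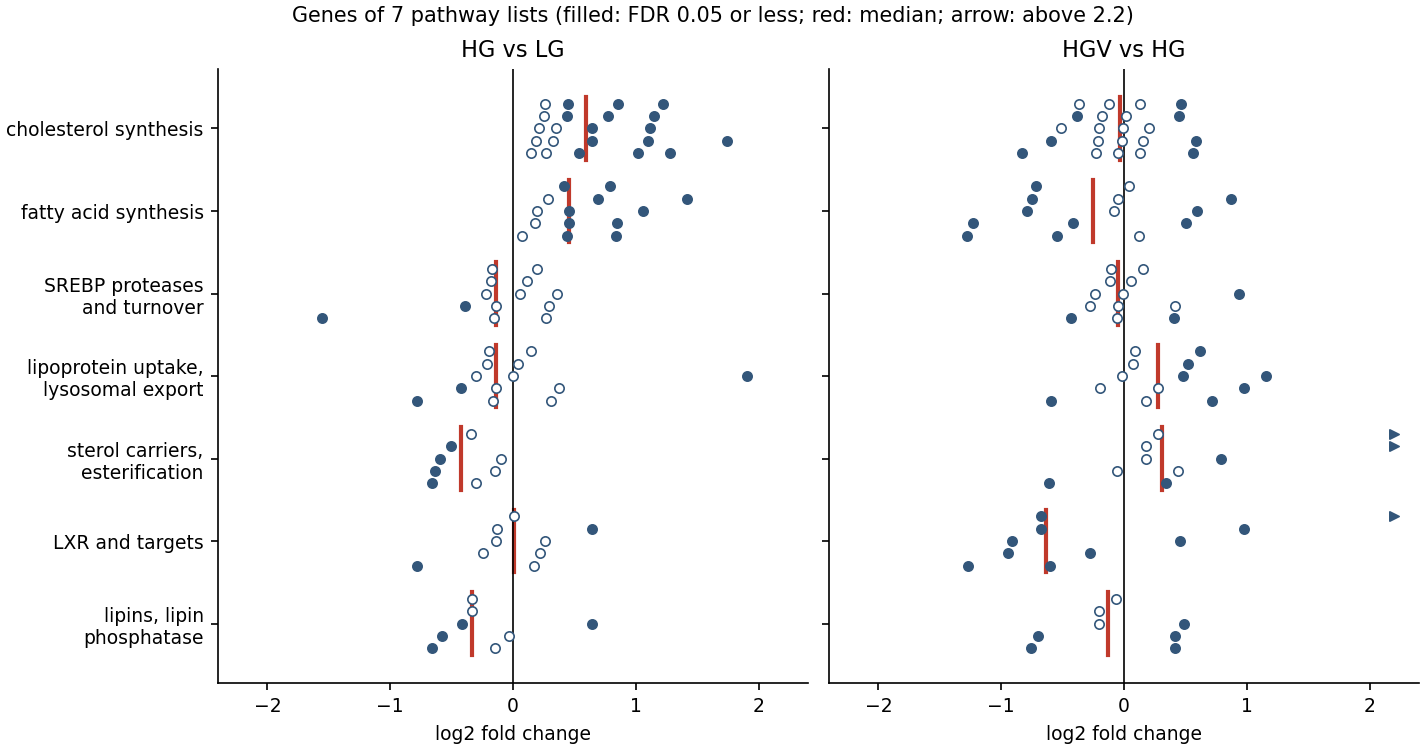
Log2 fold change (x axis) of each gene of the 7 lists (y axis) in HG against LG and in HGV against HG, with filled points for an FDR of 0.05 or less, red lines for the median and arrows for CAV1, ABCG1 and GRAMD1C, which lie beyond the axis. These genes are left out of the counts in the text, and no conclusion is drawn from their points. The medians drawn in HGV against HG include them, 0.31 for sterol carriers and -0.64 for LXR. Without them the medians are 0.23 and -0.67. With glucose all 22 cholesterol genes lie above zero, with a median of 0.59, and with VPA the list spreads to both sides of it.

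The genes whose pattern over the 12 libraries was most like that of each gene were found by the root mean square difference of log2 CPM centred on its mean, among 10471 genes with a mean of at least 5 CPM. The nearest was LAS1L for SREBF2 (difference 0.12, where SREBF2 itself spread by 0.41), MED24 for SREBF1 (0.14 against 0.54) and MAST2 for SCAP (0.06 against 0.24). It was TCEA1 for INSIG2 (0.12 against 0.41), ANKRD52 for NPC1 (0.07 against 0.25), LRRC8B for STARD4 (0.10 against 0.33) and IQGAP1 for LPIN1 (0.09 against 0.40). The second nearest were NUP210, PRR12, ARHGDIA, SMEK2, DHX38, MINPP1 and RCBTB1 in the same order of genes. Within the 7 the most alike were SCAP and NPC1, with a difference of 0.13, and the least alike SREBF1 and LPIN1, with 0.86. These differences describe 12 libraries that share 4 treatments, and no test was made of them.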

How the data were processed

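Per the labels and the methods of the study, RNA selected for poly(A) tails was prepared with a directional kit, and reads were trimmed, aligned with STAR to GRCh37 and counted per gene with featureCounts. The authors deposited raw counts for 16389 genes with a mean of at least 10 reads. Whether reads were counted by strand is not given in the sources used here. The test was that of edgeR 4.0.16 (R 4.3.3), a quasi-likelihood F test with TMM factors, fitted to the groups compared and to all genes averaging 10 or more reads there, with Benjamini-Hochberg adjustment over those genes (FDR). The interaction used the 12 libraries. SE is the log2 fold change divided by the square root of F. Exon lengths came from GENCODE on GRCh37, with all exons of a gene merged, while the study counted reads on an Ensembl annotation. Alternatives were DESeq2 1.42.0, other scalings, filters and fits, an FDR of 0.01 and each replicate left out. A ratio of INSIG1 to INSIG2 was not run.

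The 7 genes and the lists were chosen with earlier results of these data known. Named were all 7 in every comparison, from each list up to 2 genes that rose most and 2 that fell most in HG against LG and HGV against HG among those called (FDR 0.05 or less), and for each of the 7 the 2 genes most alike. A few genes that the rule selects are not reported here. Markers of HepG2 and of other cell types and genes overlapping the 7 were given as listed. No pair of replicates agreed within sampling noise.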

Additional observations from a re-analysis of the deposited data

How the results depend on the processing

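Over all alternatives, the log2 fold changes of the 7 genes kept their side of the threshold in 538 of 595 cases. These include 307 values of changes that were not called, 147 of the 595 being interaction values that all stayed uncalled. Of the 288 values of called changes, 53 missed the threshold, and 23 of the 53 were in HG against LG. In 4 cases a call was gained. The sign changed in 0 of 288 values of called changes and in 17 of 307 values of changes that were not called, such as SCAP in HGV against HG (-0.09, and 0.03 with library size alone). In HG against LG the 5 genes called became 3 with upper quartile factors or library size alone, 1 at an FDR of 0.01, and 1 to 5 with a library left out, where 1, without HG replicate 3, was SREBF2. In HGV against LGV the 5 became 3 with upper quartile factors or at an FDR of 0.01, and 3 to 5 with a library left out. In HGV against HG the 4 became 2 at an FDR of 0.01 and 2 to 4 with a library left out. In LGV against LG they stayed between 3 and 5. Of all genes, 3813 were called in HG against LG, 1852 at an FDR of 0.01, 2076 without HG replicate 3, 1933 without LG replicate 1 and 5338 without LG replicate 3. In HGV against LGV 6604 were called, 4263 at an FDR of 0.01 and from 4516 to 7228 with a library left out. The 7 interaction calls became 1 with library size alone, 13 with the replicate block and 1 to 217 with a library left out. With the replicate block, LPIN1 in HG against LG missed the threshold (4 of 7 genes called), and the counts in the other comparisons stayed at 4, 4 and 5. The labels give a shared number only, and the deviations of same-numbered libraries from their group means correlated from -0.288 to 0.449 across genes. For libraries with different numbers the range was wider, from -0.545 to 0.54. No ratio was computed for INSIG1.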
